A study of Mus musculus with 6 samples.

Results

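MHC class II antigen presentation was followed here through 10 named genes, all of which are listed in the deposited table of 24539 genes, and all 10 passed the filter on low counts that left 14322 genes to test. They are the chain genes H2-Aa, H2-Ab1 and H2-Eb1, the invariant chain Cd74, the transactivator Ciita, the peptide exchange genes H2-DMa, H2-DMb1 and H2-DMb2, and the DM inhibitor genes H2-Oa and H2-Ob. The tissue was eWAT, epididymal white fat, taken from 6 C57BL/6 mice kept on a high-fat diet (HFD) with no other treatment. In one group 3 mice carried the genotype labelled Jmjd8-KO, and in the other 3 mice were wild type (WT). The sources used here do not give the knockout allele, the cells in which it acts, the age of the mice or the length of the diet. In whole tissue, fewer cells of a type and less RNA per cell cannot be told apart.

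MHC class II molecules are pairs of an alpha and a beta chain that carry peptides of engulfed proteins to the surface of antigen-presenting cells, where CD4 T cells read them. The invariant chain holds the pair's groove until lysosomal proteases cut it down, DM then exchanges the last fragment for a peptide, and DO restrains DM. Transcription of most of these genes depends on Ciita, which acts through factors bound at the X and Y boxes of their promoters. In fat the pathway is known from macrophages and dendritic cells, and adipocytes of obese mice have been reported to use it as well. C57BL/6 mice make I-A from H2-Aa and H2-Ab1, but not I-E, since their alpha chain gene for I-E is the pseudogene H2-Ea-ps.

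The promoter stretches below are shown for letters shared by X and Y boxes, the elements through which Ciita acts on class II genes. Those of H2-DMb1 and H2-DMb2 show the Y letters only. RefSeq promoters on GRCm38.p6 were matched for 7 of the 10 genes, H2-Aa, H2-Eb1, H2-Ob, H2-Oa, H2-DMb1, H2-DMb2 and H2-DMa. Each is written 5′ to 3′ on the strand of its gene, with matches to GNAAC (letters shared by X boxes) and TGATTGG (letters shared by Y boxes) in capitals. The letters of both motifs were chosen after these promoters had been read.
H2-Aa, chr17:34287859-34287918, minus strand: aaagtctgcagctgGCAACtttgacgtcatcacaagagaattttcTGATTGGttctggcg
H2-Eb1, chr17:34305761-34305820, plus strand: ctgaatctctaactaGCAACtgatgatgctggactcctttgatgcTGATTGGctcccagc
H2-Ob, chr17:34238801-34238860, plus strand: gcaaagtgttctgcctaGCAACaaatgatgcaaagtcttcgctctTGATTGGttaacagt
H2-Oa, chr17:34092289-34092348, plus strand: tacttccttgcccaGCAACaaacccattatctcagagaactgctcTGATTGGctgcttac
The peptide exchange genes H2-DMb1 and H2-DMb2 are neighbours of near-identical sequence, shown over 30 bases around the Y motif, since GENCODE places this stretch of H2-DMb1 in its first exon.
H2-DMb1, chr17:34153110-34153139, plus strand: ctaggctgattcactcagTGATTGGtctga
H2-DMb2, chr17:34145139-34145168, plus strand: ctaggctaagtcacttagTGATTGGactga

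The 7 matched genes had 8 promoter entries, searched on both strands in the 250 bases before the gene start. TGATTGG occurred in 6 of the 8, all but those of H2-DMa, and in 7.23% of 32851 RefSeq promoters. GNAAC occurred in 7 of the 8, but also in 79.6% of promoters. GNAAC at most 40 bases upstream of TGATTGG on the same strand was found in 5 of the 8, against 0.916% of promoters. These were H2-Aa, H2-Eb1, H2-Ob, H2-Oa and H2-DMb1, with 23 to 26 bases between the motifs. Since the letters were chosen from these promoters, the higher shares among them are not a test. In H2-DMb2 no GNAAC lay within that distance of TGATTGG. A match describes the letters in this window and is not evidence of binding.

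All but Cd74 on chromosome 18 and Ciita on chromosome 16, 8 genes, lie in 224.3 kb of chromosome 17 (GENCODE M21, GRCm38), from H2-Oa at 34092340 to the end of H2-Eb1 at 34316674. H2-DMa (34119541 to 34139101), H2-DMb2 (34143307 to 34151555) and H2-DMb1 (34153072 to 34160230) follow H2-Oa on the plus strand. H2-Ob (34238903 to 34254414) and H2-Ab1 (34257689 to 34269419) stand on the plus strand beyond genes of class I presentation, and H2-Aa (34282744 to 34287823) on the minus strand. Cd74 lies at 60803848 to 60812652 and Ciita at 10480059 to 10528418, both on the plus strand.

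Total counts per library lay between 17598696 and 20598473, so counting error is small for all members but H2-DMb2, H2-Oa and H2-Ob, which had 10 to 84 counts per library. CPM below is the count scaled to library size with TMM factors, and edgeR's quasi-likelihood test was passed where the adjusted p lay under 0.05. Jmjd8 itself had 39.4, 57.7 and 42.3 CPM in Jmjd8-KO replicates 1, 2 and 3 and 112.4, 115.8 and 111.3 CPM in WT (fitted log2 change -1.28 with SE 0.144, adjusted p = 0.0193). Leaving out any one mouse but Jmjd8-KO replicate 2 left at most 17 genes passing, and Jmjd8 then missed the threshold, with adjusted p from 0.0580 to 0.137. Each group held a library unlike its fellows. In WT replicate 1 the summed CPM of 8 markers of nervous tissue was 1288, against 67.7 to 90.8 in the other 5 mice. In Jmjd8-KO replicate 2 the log2 difference from the other Jmjd8-KO mice moved with GC content, with a median of -0.20 in the quintile of genes poorest in GC and 0.24 in the richest quintile. Adipocyte markers matched the label of the tissue, with a summed CPM of 19090 to 24446 over 8 genes.

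Per length, the class II genes spanned 3 orders of level. By the authors' deposited RPKM, the mean over the 6 mice was 1285 for Cd74, 666.6 for H2-Aa, 480.0 for H2-Ab1 and 300.1 for H2-Eb1. Cd74 stood 18th of all listed genes by this mean. The peptide exchange genes H2-DMb1 and H2-DMa followed at 55.5 and 28.9 RPKM, and Ciita at 5.79 RPKM. H2-DMb2 stood at 1.74 RPKM, H2-Ob at 1.27 RPKM and H2-Oa at 0.777 RPKM. H2-Oa and H2-Ob are known mostly from B cells, thymus and some dendritic cells. Each gene exceeded the next in this order in 6 of 6 mice. Across mice the ranges of neighbours overlapped for H2-Aa and H2-Ab1 and for H2-DMb2 and H2-Ob, although within each mouse the order held, with H2-Aa at 1.32 to 1.45 times the RPKM of H2-Ab1. H2-Ea-ps had 0 counts in all 6 libraries, which allows up to 3 counts per library, or 0.147 to 0.174 CPM, while its beta chain partner gene H2-Eb1 was abundant. H2-Eb2, a second beta chain gene, had at most 0.806 CPM.

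**Figure D1:**
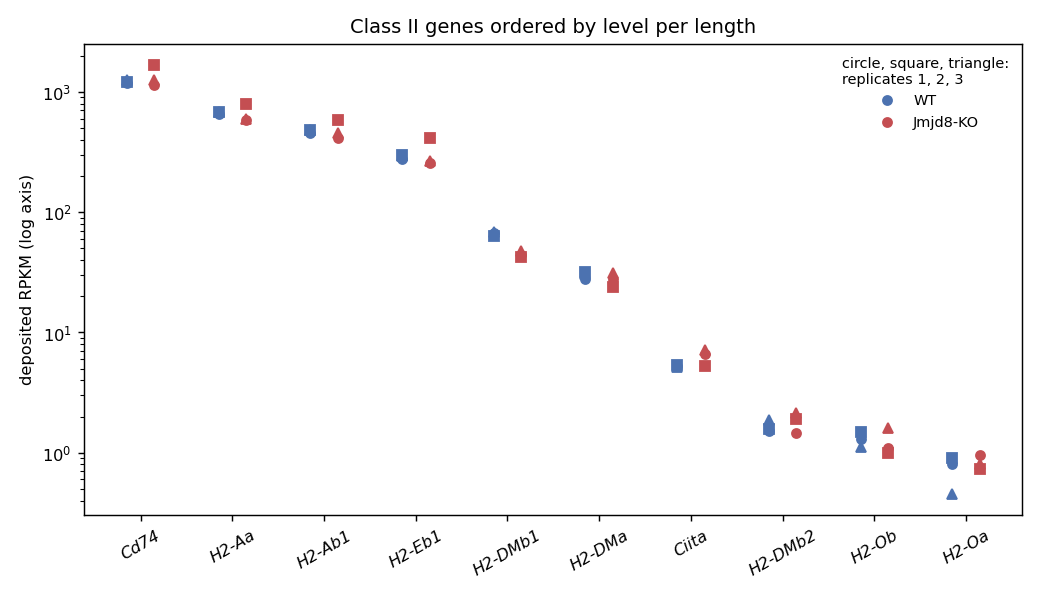
The authors' deposited RPKM (log axis) of the 10 class II genes in each mouse, ordered by the mean over 6 mice, with WT in blue and Jmjd8-KO in red and a marker shape for each replicate number. Cd74 stood highest at a mean of 1285 RPKM and H2-Oa lowest at 0.777 RPKM, and the square of Jmjd8-KO replicate 2 lay above the other mice in the 4 most abundant genes.

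The comparison of Jmjd8-KO with WT addresses whether class II expression in this fat differs with the Jmjd8 genotype. Of the 10 genes, 1 fell, H2-DMb1, a beta chain of the peptide exchanger DM, to 70.6% of its WT level. None rose and 9 did not pass. Over all tested genes 2.12% passed in either direction, 1.33% lower and 0.789% higher in Jmjd8-KO. The median log2 fold change of the 10 genes was 0.14, against -0.01 over all tested genes, and 7 of the 10 were positive, against 49.1% of all genes. The values of the groups did not overlap for 2 of 10, H2-DMb1 and Ciita, where 29.5% of all tested genes did not overlap. Without Jmjd8-KO replicate 2, H2-DMb1 fell and Ciita rose, in a fit where 9.34% of genes passed. Without WT replicate 1 none of the 10 passed, in a fit where 0.118% of genes passed. Without both mice 3 passed, H2-DMb1 and H2-Aa lower and Ciita higher, in a fit where 19.8% of genes passed.

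**Figure D2:**
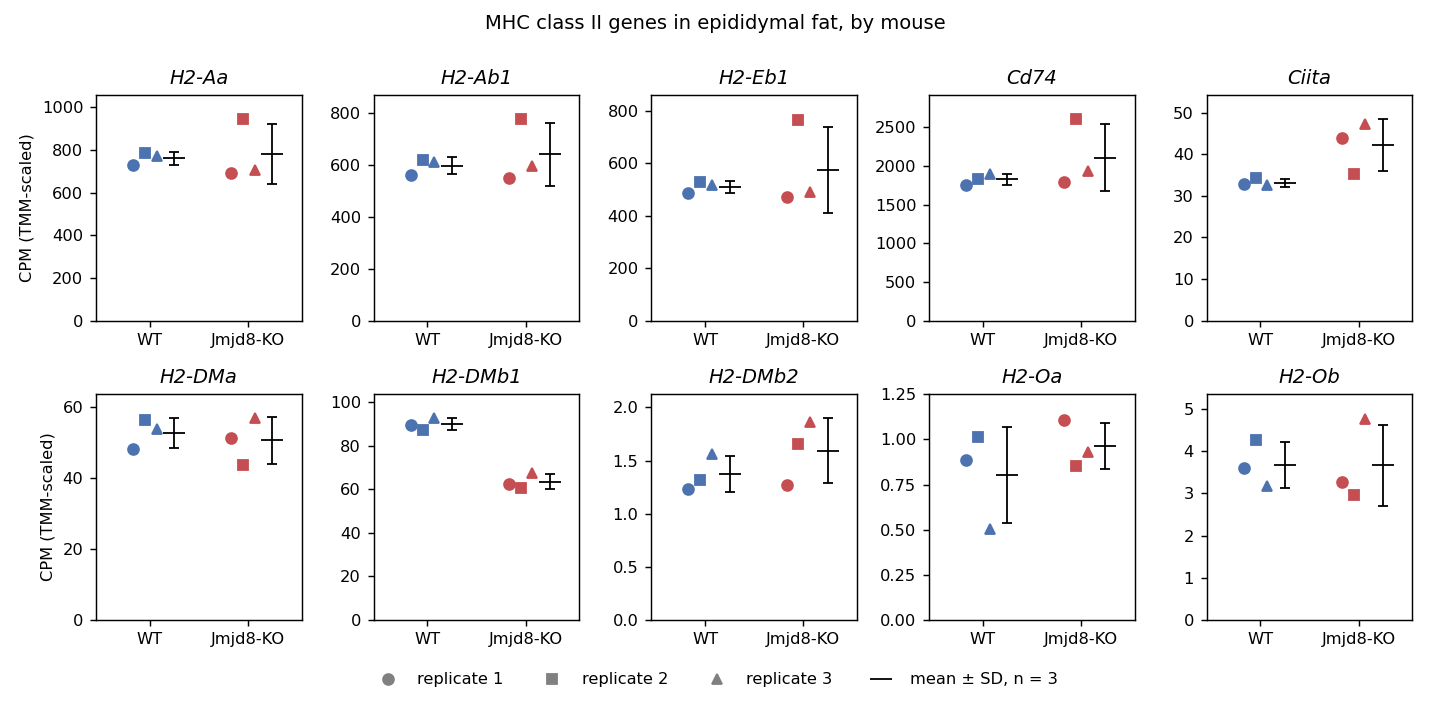
CPM (TMM-scaled, linear axis from 0) of each class II gene in each mouse, with the mean ± SD over 3 mice in black beside each group and a marker shape for each replicate number. The groups were apart for H2-DMb1, with 60.8 to 67.3 CPM in Jmjd8-KO and 87.4 to 92.6 CPM in WT, and the square of Jmjd8-KO replicate 2 was the highest point for H2-Aa, H2-Ab1, H2-Eb1 and Cd74.

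The chain genes did not pass. H2-Aa, the I-A alpha chain, was at 692.9, 944.9 and 703.8 CPM in Jmjd8-KO replicates 1, 2 and 3 and at 727.5, 785.2 and 770.2 CPM in WT replicates 1, 2 and 3. Jmjd8-KO replicate 2 was the highest of the 6 and the other Jmjd8-KO mice the lowest, so the groups overlapped (fitted log2 change 0.04 with SE 0.131, adjusted p = 0.892). H2-Ab1, the I-A beta chain, was at 549.5, 778.3 and 595.8 CPM in Jmjd8-KO and at 561.7, 621.0 and 612.4 CPM in WT. The same mouse was highest, and the fitted log2 change was 0.10 (SE 0.136, adjusted p = 0.706). H2-Eb1, the I-E beta chain, was at 469.6, 763.9 and 491.0 CPM in Jmjd8-KO and at 485.2, 529.4 and 515.9 CPM in WT. Again only Jmjd8-KO replicate 2 lay above the WT range (fitted log2 change 0.17 with SE 0.186, adjusted p = 0.634).

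Cd74, the chaperone that guides the chains to the lysosome, behaved like the chain genes. It was at 1791, 2607 and 1934 CPM in Jmjd8-KO and at 1753, 1836 and 1892 CPM in WT, and its log2 change by the fit was 0.21 (SE 0.145, adjusted p = 0.463). Jmjd8-KO replicates 2 and 3 lay above all WT mice and replicate 1 within their range. Together these 4 genes took 0.342%, 0.492% and 0.364% of all counts in the Jmjd8-KO mice against 0.366%, 0.382% and 0.388% in WT.

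The level in Jmjd8-KO replicate 2 set the sign of the chain genes. It was 1.35-fold the mean of the other Jmjd8-KO mice for H2-Aa, 1.36-fold for H2-Ab1, 1.59-fold for H2-Eb1 and 1.40-fold for Cd74, and 15.8% of all tested genes were at or above 1.35-fold in that mouse. The 6 other class II genes did not share this: there the ratio ran from 0.739 for H2-Ob to 1.06 for H2-DMb2. Without this mouse the log2 fold change was -0.12 for H2-Aa, -0.06 for H2-Ab1, -0.09 for H2-Eb1 and 0.03 for Cd74, with adjusted p from 0.218 to 0.825. GC content differed among the 4 genes, from 46.5% for H2-Aa to 57.3% for H2-Ab1. With the GC trend of each library as an offset in the fit, an alternative chosen after seeing the data, their log2 fold changes were 0.07 for H2-Aa, 0.03 for H2-Ab1, 0.16 for H2-Eb1 and 0.15 for Cd74.

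Ciita, the master regulator of class II transcription, was higher in CPM in every Jmjd8-KO mouse without passing. It was at 44.0, 35.2 and 47.4 CPM in Jmjd8-KO and at 32.7, 34.2 and 32.5 CPM in WT. The groups did not overlap, with Jmjd8-KO replicate 2 close above the highest WT mouse (fitted log2 change 0.35 with SE 0.119, unadjusted p = 0.0224 and adjusted p = 0.184, edgeR). In the deposited RPKM, which lacks the TMM scaling, that mouse had 5.28 and WT 5.13 to 5.32, so the groups overlapped. Without Jmjd8-KO replicate 2 it rose by 0.46 on the log2 scale (SE 0.0621, adjusted p = 0.0126). This mouse therefore held the highest chain gene levels and the lowest Ciita level of its group. The ratio of H2-Ab1 to Ciita RPKM was 111.3 there, 62.8 and 63.2 in the other Jmjd8-KO mice and 86.3 to 94.7 in WT. On the opposite strand the span of Dexi, introns included, covers 6792 of 9535 exon bases of Ciita. Of the 50-base windows of Ciita transcripts, 1.46% also occur in Dexi transcripts, searched on both strands. The sources used here do not give the strand setting of the counts, so reads in those shared windows cannot be told apart. Dexi was at 12.5, 19.9 and 13.3 CPM in Jmjd8-KO and at 12.3, 12.1 and 10.5 CPM in WT (log2 fold change 0.39, adjusted p = 0.322), highest in the Jmjd8-KO mouse where Ciita was lowest.

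H2-DMb1 was the member that fell. DM is a class II-like molecule of an alpha chain, from H2-DMa, and a beta chain, from H2-DMb1 or H2-DMb2, that speeds the exchange of peptides in the lysosome. H2-DMb1 was at 62.3, 60.8 and 67.3 CPM in Jmjd8-KO and at 89.7, 87.4 and 92.6 CPM in WT. All 3 Jmjd8-KO mice lay below all 3 WT mice, and the spread within each group was small, with means of 63.5 ± 3.41 and 89.9 ± 2.63 CPM (SD, n = 3 each). By the fit it changed by -0.50 on the log2 scale (SE 0.0723, adjusted p = 0.0293). Jmjd8-KO replicate 2, unlike in the chain genes, did not stand apart. The call was lost when any mouse but that one was left out, with an adjusted p of 0.131 without replicate 1 and 0.0758 without replicate 3 of Jmjd8-KO, and of 0.101, 0.114 and 0.172 without WT replicates 1, 2 and 3. The log2 fold change stayed between -0.55 and -0.47 in these fits. The adjusted p was 0.00872 when Jmjd8-KO replicate 2 was left out.

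The partner genes of H2-DMb1 did not pass. H2-DMa was at 51.3, 43.9 and 56.9 CPM in Jmjd8-KO and at 48.2, 56.4 and 53.8 CPM in WT, with overlapping groups (fitted log2 change -0.06 with SE 0.115, adjusted p = 0.797). The RPKM of H2-DMb1 was 1.57, 1.79 and 1.53 times that of H2-DMa in Jmjd8-KO and 2.40, 2.00 and 2.22 times in WT, so every Jmjd8-KO mouse lay below every WT mouse in this ratio, which was not tested. The span of Brd2, introns included, on the opposite strand covers 510 exon bases of H2-DMa. Of the 50-base windows of H2-DMa transcripts, 8.43% also occur in Brd2 transcripts. Brd2 was at 174.1 to 176.8 CPM in Jmjd8-KO and 176.3 to 181.9 CPM in WT.

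H2-DMb2, the other DM beta chain gene, had 24, 33 and 32 counts in Jmjd8-KO and 25, 26 and 31 counts in WT (fitted log2 change 0.22 with SE 0.240, adjusted p = 0.647). The groups overlapped and the level was near 1 CPM. The longest transcripts of H2-DMb1 and H2-DMb2 were identical at 94.1% of 1219 aligned bases, and 22.7% of the 50-base windows of H2-DMb1 transcripts also occur in H2-DMb2. The sources used here do not say how reads that match both genes were counted. Among pairs of class I genes, H2-Q7 and H2-Q9 had equal counts in all 6 libraries, H2-Q6 and H2-Q8 in 2 and H2-T22 and H2-T9 in 0. H2-DMb1 had 1158 to 1838 counts against 24 to 33 for H2-DMb2. The log2 ratio of H2-DMb1 to H2-DMb2 counts was 5.62, 5.19 and 5.18 in the Jmjd8-KO mice against 6.18, 6.05 and 5.89 in WT. The ratio was lower in every Jmjd8-KO mouse (difference -0.71, exact two-sided permutation test p = 0.10, the smallest that 3 against 3 mice allow). H2-DMb1 alone was already lower in every Jmjd8-KO mouse, and H2-DMb2 rests on 24 to 33 counts. The ratio is therefore no separate support for the fall of H2-DMb1.

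**Figure D3:**
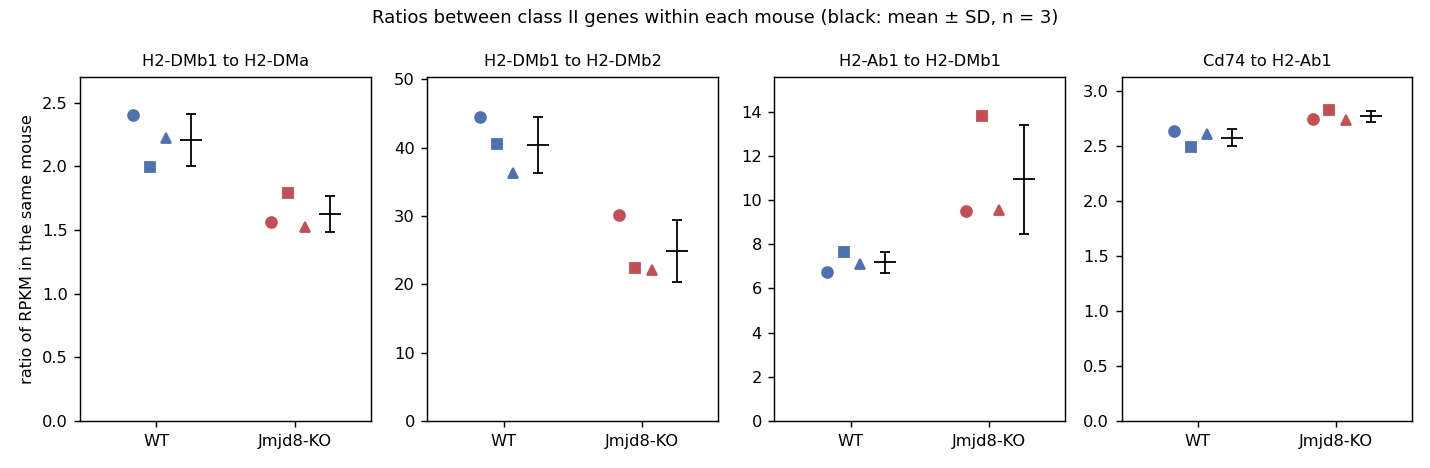
Ratios of the deposited RPKM of 2 class II genes within the same mouse (linear axes from 0), with WT in blue, Jmjd8-KO in red, a marker shape for each replicate number and the mean ± SD over 3 mice in black. H2-DMb1 to H2-DMa was 1.53 to 1.79 in Jmjd8-KO and 2.00 to 2.40 in WT, H2-DMb1 to H2-DMb2 was also lower in every Jmjd8-KO mouse, and H2-Ab1 to H2-DMb1 was higher in each, at 9.49 to 13.8 against 6.74 to 7.65.

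The ratio of chain to DM beta chain followed from these values. The RPKM of H2-Ab1 was 9.49, 13.8 and 9.53 times that of H2-DMb1 in Jmjd8-KO and 6.74, 7.65 and 7.12 times in WT. The ratio of H2-Ab1 to H2-DMa was 14.9, 24.7 and 14.5 in the Jmjd8-KO mice against 16.2, 15.3 and 15.8 in WT, with only Jmjd8-KO replicate 2 above the WT range. Cd74 to H2-Ab1 was 2.75, 2.82 and 2.74 in the Jmjd8-KO mice against 2.63, 2.49 and 2.61 in WT. None of these ratios was tested.

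The DM inhibitor genes did not pass, and their counts were low. H2-Oa, the DO alpha chain, had 21, 17 and 16 counts in the Jmjd8-KO mice against 18, 20 and 10 in WT (fitted log2 change 0.26 with SE 0.321, adjusted p = 0.675). Its exons lie wholly within the span, introns included, of BC051537 on the opposite strand, which had at most 0.254 CPM. Of the 50-base windows of H2-Oa transcripts, 15.5% also occur in BC051537 transcripts. H2-Ob, the DO beta chain, had 62, 59 and 82 counts in the Jmjd8-KO mice against 73, 84 and 63 in WT (fitted log2 change -0.01 with SE 0.239, adjusted p = 0.991). The groups overlapped for both genes, and their SE was larger than the 0.0723 of H2-DMb1.

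**Figure D4:**
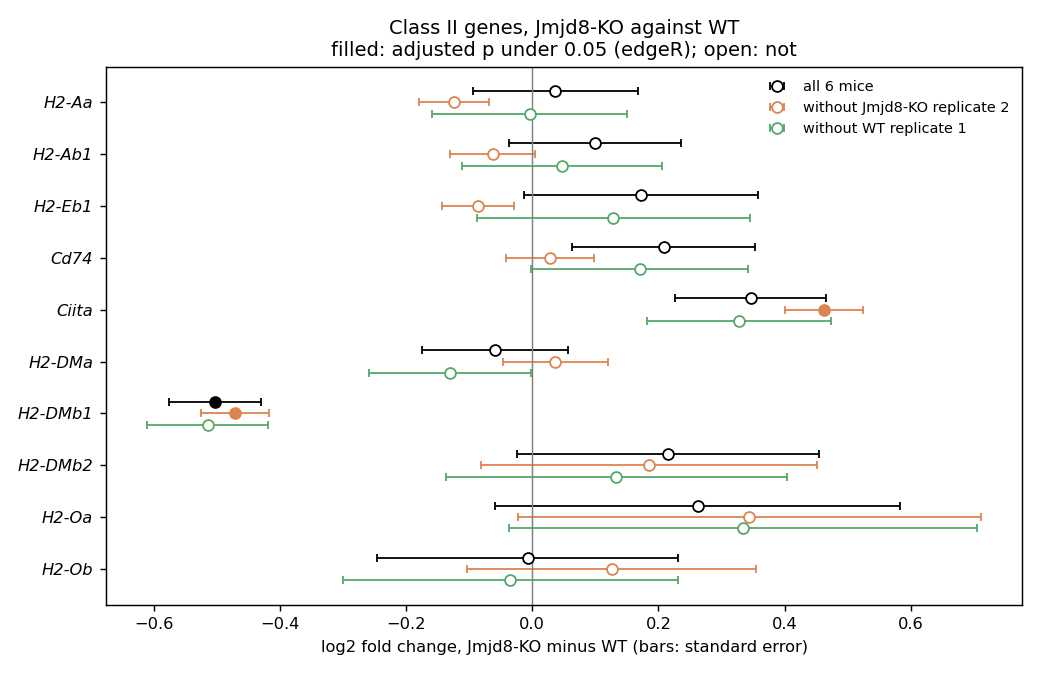
Log2 fold change (Jmjd8-KO minus WT, bars for the standard error) of each class II gene with all 6 mice (black), without Jmjd8-KO replicate 2 (orange) and without WT replicate 1 (green), filled where the adjusted p was under 0.05. H2-DMb1 lay at -0.50 with all mice and stayed at -0.47 and -0.51, H2-Aa, H2-Ab1 and H2-Eb1 moved below 0 without Jmjd8-KO replicate 2 (H2-Aa also to just below 0 without WT replicate 1), and Ciita was filled at 0.46 only there.

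Genes outside the 10 were ranked by how close their pattern over the 6 mice was to that of H2-Aa, H2-Ab1, H2-Eb1 and Cd74. Among 10888 tested non-members at 5 CPM or more, the 6 nearest to the mean centred log2 CPM of those 4 genes were Lias, Safb2, Cyp4f16, Sap30bp, Alas2 and Mrpl18. Their root-mean-square distance was 0.03 on the log2 scale over 6 mice, against a median of 0.23 over all candidates. The 4 genes themselves lay at 0.03 to 0.06 from their own mean. The pattern peaks in Jmjd8-KO replicate 2, so genes chosen for likeness to it do too, for example Safb2 at 66.9 CPM against 43.3 to 49.6 CPM in the other mice. The distance of the other members from that pattern was 0.20 for H2-DMb2, 0.29 for H2-DMa, 0.32 for Ciita, 0.36 for H2-Ob, 0.37 for H2-DMb1 and 0.39 for H2-Oa.

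Upstream of the class II genes, 1 gene fell. Of 9 tested genes of interferon gamma signalling to Ciita, 1 fell, 0 rose and 8 missed the threshold, with a median log2 fold change of -0.18. The one that fell was Spi1, the myeloid transcription factor PU.1, from 85.2 ± 5.47 to 58.0 ± 6.82 CPM (fitted log2 change -0.56 with SE 0.103, adjusted p = 0.0495). Ifngr2, a chain of the interferon gamma receptor, had -0.35 (adjusted p = 0.0681) and Irf8, a factor of myeloid cells, -0.27 (adjusted p = 0.140). Ifng itself was too low to test, at 0.232 CPM or less. Among all tested genes 1.33% fell. Without Jmjd8-KO replicate 2, 3 of these interferon genes fell, in a fit where 9.34% of all genes passed. Without WT replicate 1 none passed, in a fit where 0.118% of all genes passed. With all 6 mice, none passed under DESeq2 size factors, with no filter or with the GC offset. With total counts 2 fell, where 372 of 14322 genes passed, and with the DESeq2 test 2, where 1039 passed. Limma-voom gave 5 lower, where 14.2% of all genes passed. Of 7 factors that bind class II promoters with Ciita, none passed (median -0.11): Nfya, a subunit of the Y box factor NF-Y, had -0.27 (adjusted p = 0.402) and Rfxank, a subunit of the X box factor RFX, -0.11 (adjusted p = 0.481).

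Lysosomal processing genes fell in part. Of 8 that cut or reduce antigen or cut the invariant chain, 3 fell, 0 rose and 5 missed the threshold, where 1.33% of all tested genes fell. All 8 had a negative log2 fold change (median -0.26). Ctss, cathepsin S, the main protease of the invariant chain in macrophages and dendritic cells, was at 350.5, 393.1 and 377.1 CPM in Jmjd8-KO and at 598.4, 550.3 and 582.4 CPM in WT. All Jmjd8-KO mice lay below all WT mice, at 64.7% of the WT level by the fit (fitted log2 change -0.63 with SE 0.0781, adjusted p = 0.0217). Ifi30, the thiol reductase GILT that opens disulphide bonds of antigens, fell from 112.8 ± 2.59 to 76.4 ± 3.03 CPM (fitted log2 change -0.56 with SE 0.0675, adjusted p = 0.0214). Lgmn, the asparagine endopeptidase legumain, fell from 391.1 ± 16.7 to 280.6 ± 21.9 CPM (fitted log2 change -0.48 with SE 0.0842, adjusted p = 0.0421). Ctsb and Ctsh, cathepsins B and H, had -0.35 (adjusted p = 0.0987) and -0.17 (adjusted p = 0.240). Without Jmjd8-KO replicate 2, 5 of the 8 fell, in a fit where 9.34% of all genes passed. Without WT replicate 1 none passed (median -0.29), in a fit where 0.118% of all genes passed.

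Turnover and co-stimulatory genes did not pass. Of 3 genes that set the surface life of class II molecules, Cd83, which protects them from ubiquitin ligases, was at 23.5, 16.5 and 26.9 CPM in Jmjd8-KO and at 35.7, 36.3 and 39.6 CPM in WT. The groups did not overlap (fitted log2 change -0.74 with SE 0.174, adjusted p = 0.0850), as for 29.5% of all tested genes. Without Jmjd8-KO replicate 2, 1 of the 3 genes fell, in a fit where 9.34% of all genes passed. For the ubiquitin ligase March8 the groups did not overlap either, with Jmjd8-KO higher (log2 fold change 0.10, adjusted p = 0.452). Of 5 tested co-stimulatory and inhibitory ligands none passed (median -0.20). Cd274, the inhibitory ligand PD-L1, had -0.31 (adjusted p = 0.178) and Cd40, a receptor of T cell help, -0.40 (adjusted p = 0.328).

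Class I presentation, the sister pathway, is partly encoded among the class II genes. Of its 15 genes 1 fell, 0 rose and 14 missed the threshold (median -0.02), where 1.33% of all tested genes fell. H2-K1, a classical class I heavy chain, fell from 1436 ± 41.2 to 1091 ± 42.8 CPM (fitted log2 change -0.40 with SE 0.0725, adjusted p = 0.0481). B2m, the light chain of class I, had -0.38 (adjusted p = 0.482) and H2-D1, the other classical heavy chain, -0.16 (adjusted p = 0.490). Heavy chain genes share sequence, so how their reads were assigned is uncertain. With all 6 mice, none of the 15 passed under DESeq2 size factors or with no filter. With total counts, a stricter filter, the DESeq2 test or the GC offset 1 fell, in fits where 329 to 1039 genes passed. Limma-voom gave 2 lower, where 14.2% of all genes passed. Without Jmjd8-KO replicate 2, 2 of the 15 fell, in a fit where 9.34% of all genes passed. Without WT replicate 1 none passed, in a fit where 0.118% of all genes passed. Leaving out any other single mouse also left no gene of the pathway lists passing.

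Markers of cells that present on class II were counted beside these results. Macrophage markers fell in 6 of 12 cases and rose in 0 (median -0.43), where 1.33% of all tested genes fell. Their summed CPM was 2623 to 3003 in Jmjd8-KO and 3746 to 3859 in WT. Without Jmjd8-KO replicate 2, 9 fell, in a fit where 9.34% of all genes passed. Without WT replicate 1, 0 fell, in a fit where 0.118% of all genes passed. Of 12 dendritic cell markers none passed (median 0.07), with a summed CPM of 197.9 to 218.4 in Jmjd8-KO and 192.9 to 211.8 in WT. Of 8 tested B cell markers none passed (median 0.16), with a summed CPM over 10 listed of 14.3 to 20.05 and 17.6 to 21.3. T cell markers, 8 tested, did not pass either (median -0.32, summed CPM of 12.8 to 14.4 and 12.9 to 15.9), nor did 4 of endothelium (median 0.04, summed CPM of 646.5 to 678.0 and 643.9 to 686.3). Of 8 adipocyte markers 1 rose (median 0.31), where 0.789% of all tested genes rose. None of 6 tested nervous tissue markers passed (median -4.11, and -0.27 without WT replicate 1). No marker of these lists was at 0 in all libraries. The 6 macrophage markers that passed fell, as did H2-DMb1 and the lysosomal genes that passed. Of the 12 macrophage markers 11 had a negative log2 fold change. Csf1r, at -0.02 (adjusted p = 0.875), was nearly level, and Mertk was at 0.11 (adjusted p = 0.612). The part of macrophage markers in the results for H2-DMb1 and the lysosomal genes was not tested.

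**Figure D5:**
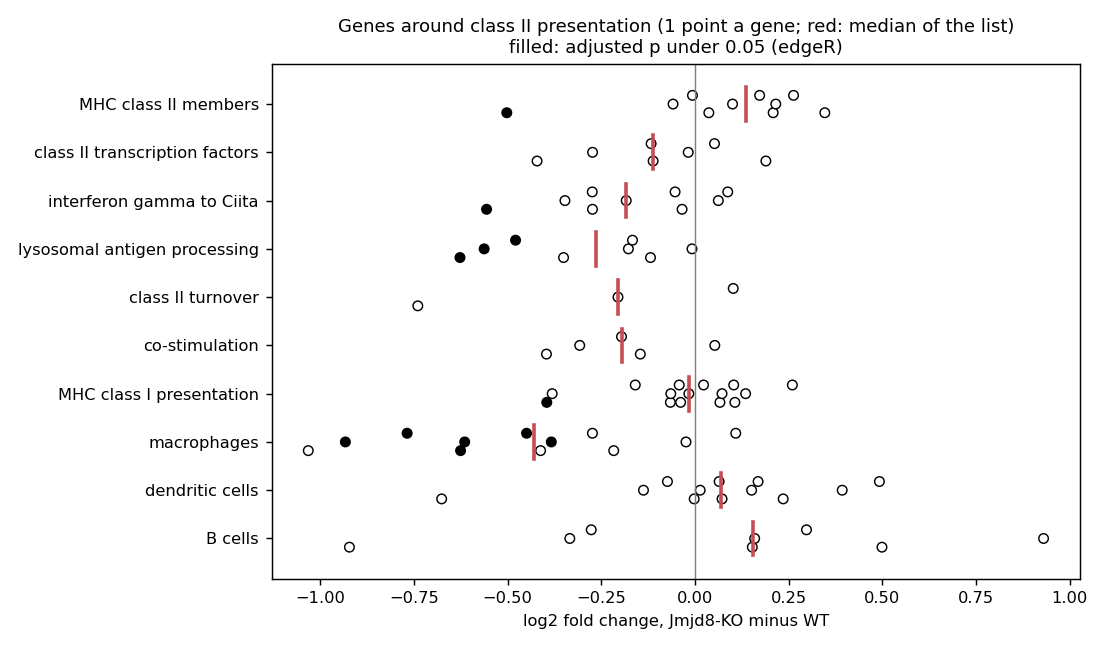
Log2 fold change (Jmjd8-KO minus WT) of the tested genes of the class II pathway and of cell type markers, 1 point for a gene, filled where the adjusted p was under 0.05, with the median of each list in red. The medians lay at 0.14 for the class II genes, -0.26 for lysosomal antigen processing, -0.43 for macrophage markers, 0.07 for dendritic cell markers and 0.16 for B cell markers.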

How the data were processed

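The authors deposited 1 table of raw counts and RPKM values (scaled to gene length and library size) by gene in 6 mice, 3 Jmjd8-KO and 3 WT, per the file headers. Per the submitters' processing notes, STAR, featureCounts and the mm10 build were used. The sources used here do not give versions, annotation, strand setting or the treatment of multi-mapping reads. The deposited counts were filtered with edgeR's filterByExpr (minimum count 10), scaled by TMM and tested with the quasi-likelihood test, genotype being the only term (edgeR 4.0.16, limma 3.58.1 and DESeq2 1.42.0 in R 4.3.3). Adjusted p is the Benjamini-Hochberg value over all 14322 tested genes. SE was taken as the size of the log2 change divided by the root of the F statistic. RPKM was used for levels and ratios between genes. Positions come from GENCODE M21 on GRCm38, the assembly of mm10, matched by symbol for 97.3% of genes. Mice are separate animals per the series' design text.

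The 10 members, the gene lists and the rule for named genes (in each list the genes that passed and the 2 of smallest p beyond them) were chosen with earlier results of these data known. Members are all named, and so are the 6 genes nearest to the pattern of 4 of them. Safb2, Dexi, Brd2, BC051537, Csf1r, Mertk, H2-Q7, H2-Q9, H2-Q6, H2-Q8, H2-T22 and H2-T9 were named after their values were seen. So were the ratios within a mouse other than H2-DMb1 to H2-DMb2. The fit was checked on simulated counts. Alternatives were other scalings, filters and tests, a replicate block, a GC offset and leaving out mice.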

Additional observations from a re-analysis of the deposited data

How the results depend on the processing

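Across settings the count of genes passing was 304 as reported and 287 to 420 with DESeq2 size factors, total counts, a stricter filter or the GC offset, against 156 with no filter, 1039 with the DESeq2 test, 2030 with limma-voom and 2833 without WT replicate 1 and Jmjd8-KO replicate 2. With one mouse left out it was 0 to 1351. Same-numbered mice did not deviate together (correlations of -0.03 to 0.01). Deviations were taken within groups of 3 mice, each with a library unlike its fellows, so these correlations cannot exclude a pairing by number. With the replicate block 5 genes passed, none of them in the interferon gamma, lysosomal or class I lists. The class II genes passing were 1 as reported, 0 with the replicate block (H2-DMb1 -0.50, adjusted p = 0.0965), 2 with limma-voom (H2-DMb1 and Ciita, 0.45, where 14.2% of all genes passed), 3 without both mice (H2-DMb1, Ciita at 0.45 and H2-Aa at -0.16) and 0 to 2 with one mouse left out. With all mice H2-DMb1 passed in each setting but the block. With one mouse left out the log2 fold change ranged from -0.12 to 0.12 for H2-Aa, -0.06 to 0.20 for H2-Ab1, -0.09 to 0.30 for H2-Eb1, 0.03 to 0.32 for Cd74, 0.26 to 0.46 for Ciita, -0.15 to 0.036 for H2-DMa, -0.55 to -0.47 for H2-DMb1, 0.09 to 0.36 for H2-DMb2, 0.02 to 0.46 for H2-Oa and -0.24 to 0.13 for H2-Ob. The H2-DMb1 to H2-DMb2 log2 ratio differed by -0.86 to -0.63. Signs that turned, none of them called except H2-Aa without both mice, were H2-Aa at -0.041 with total counts, H2-Aa, H2-Ab1, H2-Eb1, H2-DMa and H2-Ob at -0.12, -0.068, -0.080, 0.0012 and 0.11 with limma-voom, H2-Ob at 0.0028 with DESeq2 size factors, 0.0012 with the DESeq2 test and 0.021 with the GC offset, and H2-Ab1, H2-Eb1, Cd74 and H2-Ob at -0.11, -0.12, -0.0019 and 0.10 without both mice. The order by level was the same by the median over mice. The cause of these changes was not tested.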

Other observations

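Genes of class I presentation that lie between H2-DMb1 and H2-Ob on chromosome 17 gave further values. Psmb8, a subunit of the immunoproteasome, was at 35.6, 70.1 and 41.7 CPM in Jmjd8-KO replicates 1, 2 and 3 and at 44.8, 45.8 and 49.7 CPM in WT. Psmb9, another such subunit, was at 16.2, 18.2 and 15.5 CPM in Jmjd8-KO and at 16.2, 18.6 and 16.5 CPM in WT. Tap2, a chain of the peptide transporter, was at 70.4, 121.1 and 71.2 CPM in Jmjd8-KO and at 69.1, 71.1 and 79.4 CPM in WT, and Tap1, its partner, at 37.6, 51.0 and 40.9 CPM and at 37.4 to 40.5 CPM. B2m, encoded outside this region, went the other way in Jmjd8-KO replicate 2, at 1338 CPM, where replicates 1 and 3 had 2867 and 2978 CPM and WT 3003 to 3221 CPM. None of these genes passed, and no cause was tested.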
